A study of Homo sapiens with 14 samples.

Results

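The transcriptome of Panc-1 cells after 24 h of epidermal growth factor (EGF) was compared with that of 2 reference libraries of the same line, an untreated (mock) library and a library after 24 h of angiogenin (ANG). Panc-1 is an established human pancreatic carcinoma cell line. A gene was considered where its listed span was at least 400 bp and it reached 1 RPKM (reads per kilobase of transcript and M mapped reads) in any of these 3 libraries, which 11950 of 23040 listed genes did. A gene counted as higher or lower where EGF 24 h differed in the same direction from both references. The series holds 14 libraries of total RNA, extracted with TRIzol, of Panc-1 and of another pancreatic carcinoma line, AsPC-1. After serum starvation each line received EGF at 50 ng/ml or ANG at 1 µg/ml for 1, 5 or 24 h, and mock cells received neither, at a time the labels do not give. Each condition has 1 library per line, so no spread between repeats can be measured within Panc-1, and the differences below carry no test unless one is named. The references resembled each other more than either resembled EGF 24 h, with a Euclidean distance over the considered genes of 23.3 between them, against 28.1 from EGF 24 h to mock and 27.1 to ANG 24 h.

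EGF binds the receptor tyrosine kinase EGFR and, through RAS and the MAP kinases, switches on transcription in waves. Immediate-early factors such as EGR1, FOS and JUN come and go within hours, and are followed by genes that restrain the pathway, such as the Sprouty inhibitors and the dual-specificity phosphatases, and later by genes of adhesion, invasion and division. In pancreatic ductal carcinoma the pathway is commonly active, and loss of the epithelial cadherin CDH1 is a known companion of a mesenchymal, invasive state.

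At 24 h of EGF 3282 of the 11950 genes (27.5%) were higher than in both references, 4812 (40.3%) were lower than in both, and 3856 differed in opposite directions or not at all. Most of these differences were small. On log2(RPKM + 1), 8 genes (0.0669%) were at least 2-fold higher than both references and 4 (0.0335%) at least 2-fold lower. Against mock alone 17 genes (0.142%) were 2-fold higher and 9 (0.0753%) lower, and against ANG 24 h alone 18 (0.151%) and 11 (0.0921%). At 1.5-fold against both, the counts were 100 (0.837%) and 70 (0.586%). Between the references themselves, 7 genes were at least 2-fold higher in ANG 24 h than in mock (0.0586%) and none of 11950 was that much lower. Just inside the 2-fold line lay NACA2 (1.00) and SYT5 (-1.01), and just outside it ASPM (0.98) and RASL11A (-0.95), each given as the smaller of its differences from the references.

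The 3 libraries held an estimated 12.7 to 15.6 M reads, so that a single read in a transcript of 2 kb stands for 0.0320 to 0.0393 RPKM. Genes under the span limit took 6.22% of reads in mock, 16.5% in ANG 24 h and 11.6% in EGF 24 h. The median gene of EGF 24 h lay 0.10 below mock and 0.03 above ANG 24 h on the log2 scale. Of 9 markers of ductal carcinoma cells, the keratins KRT8, KRT18 and KRT19 were abundant (KRT18 at 395 to 523 RPKM in the 3 libraries). KRT7 stood at 2.82 to 4.13 RPKM and CDH1 at 5.86 to 13.5, and 1 of the 9 was listed at 0 in all 3. Of 10 acinar and islet markers none reached 1 RPKM, and 7 were listed at 0 in all 3. Of 10 immune and endothelial markers LYZ alone reached 1 RPKM (3.46 at most), and their summed level was 3.33 RPKM in EGF 24 h, 3.90 in mock and 2.14 in ANG 24 h. Of 10 genes typical of AsPC-1 6 were considered, and the summed level of the list was 105, 122 and 103 RPKM in the same order. The part of read depth and of the short-gene share in the differences below was not tested.

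**Figure D1:**
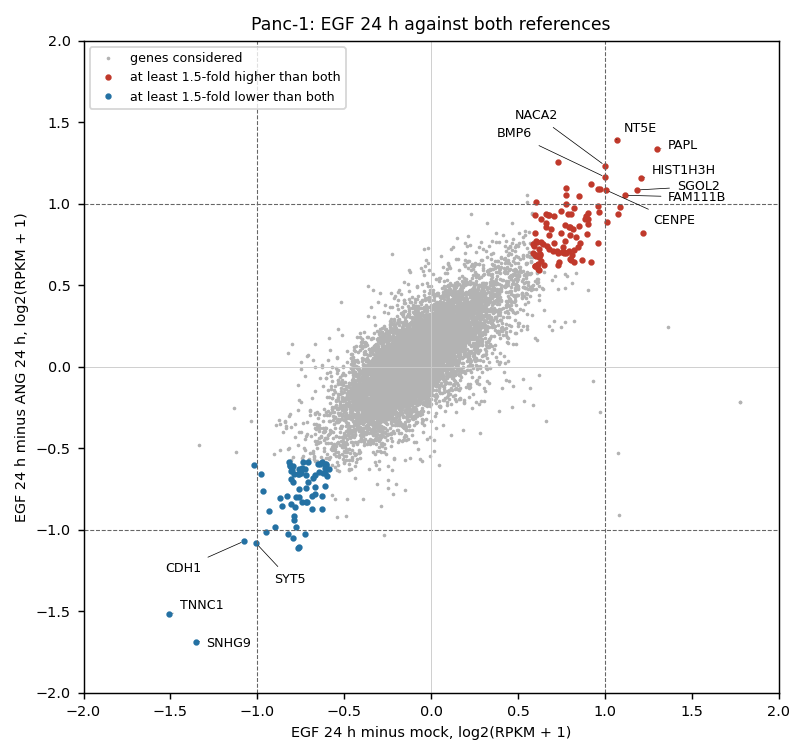
Difference of Panc-1 EGF 24 h from mock (x axis) and from ANG 24 h (y axis) on log2(RPKM + 1), 1 point per gene for 11950 genes, with dashed lines at 2-fold. The 100 genes at least 1.5-fold higher than both references are red, the 70 lower ones blue, and the 12 genes past 2-fold in the same direction against both are named; the axes share 1 library, so the diagonal shape of the cloud is no measure of agreement.

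The genes furthest above both references included enzymes and a secreted ligand at the cell surface. PAPL, now named ACP7, a phosphatase of the purple acid family (hg19, chromosome 19, 39574945 to 39602128), was at 19.1 RPKM at 24 h of EGF, against 7.14 in mock and 6.95 at 24 h of ANG. Its differences of 1.30 and 1.33 on the log2 scale compare with a counting error of at most 0.16, from an estimated 279 reads. It stood at 6.87 RPKM at 1 h of EGF and 15.2 at 5 h, while the 1 h and 5 h ANG libraries held 5.09 and 5.95, so the 5 h and 24 h EGF libraries were the highest of the 7 in Panc-1. PAPL was at 0.01 RPKM at most in the AsPC-1 mock, ANG 24 h and EGF 24 h libraries.

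NT5E, the surface enzyme CD73 that makes adenosine from AMP (chromosome 6, 86159302 to 86205498), was at 74.5 RPKM, against 35.0 in mock and 27.7 at 24 h of ANG (differences 1.07 and 1.39). Its other Panc-1 values were 33.6 and 31.9 RPKM at 1 and 5 h of ANG and 37.0 and 46.1 at 1 and 5 h of EGF. EGF 24 h was thus the highest of 7 libraries and EGF 5 h the next. In AsPC-1 it was at 120 RPKM at 24 h of EGF, against 104 in mock and 92.5 at 24 h of ANG.

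BMP6, a bone morphogenetic protein (chromosome 6, 7727011 to 7881961), was at 21.1 RPKM, against 10.1 in mock and 8.89 with ANG (differences 1.00 and 1.16). The 1 h and 5 h EGF libraries held 13.7 and 23.1 RPKM and those of ANG 11.6 and 13.1, so both late EGF libraries exceeded the other 5. BMP6 was the gene of the 8 with the widest gap in AsPC-1, at 16 RPKM with EGF against 2.30 in mock and 2.62 with ANG. Near it in Panc-1 lay ARSI, an arylsulfatase, at 9.25 RPKM against 4.41 and 3.71 (0.92 and 1.12), which was also higher with EGF than with ANG at 5 h (11.2 and 4.89 RPKM). NACA2 was at 17.6 RPKM against 8.29 and 6.90, but it is a near-identical intronless copy of NACA, so its reads are uncertain.

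The other 4 of the 8 genes belong to cell division and chromatin. CENPE, a kinesin motor of the kinetochore (chromosome 4, 104026963 to 104119566), was at 3.98 RPKM, against 1.48 in mock and 1.35 with ANG (1.01 and 1.08). SGOL2, now SGO2, which protects cohesin at centromeres, was at 10.5 RPKM against 4.06 and 4.42 (1.18 and 1.08). FAM111B, a protease gene outside the naming rule that is named here because it is 1 of the 8, was at 4.39 RPKM against 1.49 and 1.60 (1.11 and 1.05). With each library centred on its median the smaller FAM111B difference was 0.99, just under 2-fold.

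These division genes had a different course from PAPL, NT5E and BMP6. CENPE was at 14.4 and 7.91 RPKM at 1 and 5 h of ANG and at 15.3 and 9.5 at 1 and 5 h of EGF, so EGF 24 h lay above mock and ANG 24 h but below all 4 early libraries. SGOL2 (20.7 to 29.5 RPKM in the early libraries) and FAM111B (6.81 to 9.76) showed the same order. So did HIST1H3H, now H3C10, a replication-dependent histone H3 gene (chromosome 6, 27777842 to 27778314), at 416 RPKM with EGF against 179 and 186, and 802 to 1205 in the early libraries. Histone H3 genes have near-identical copies, so the reads of HIST1H3H are uncertain.

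**Figure D2:**
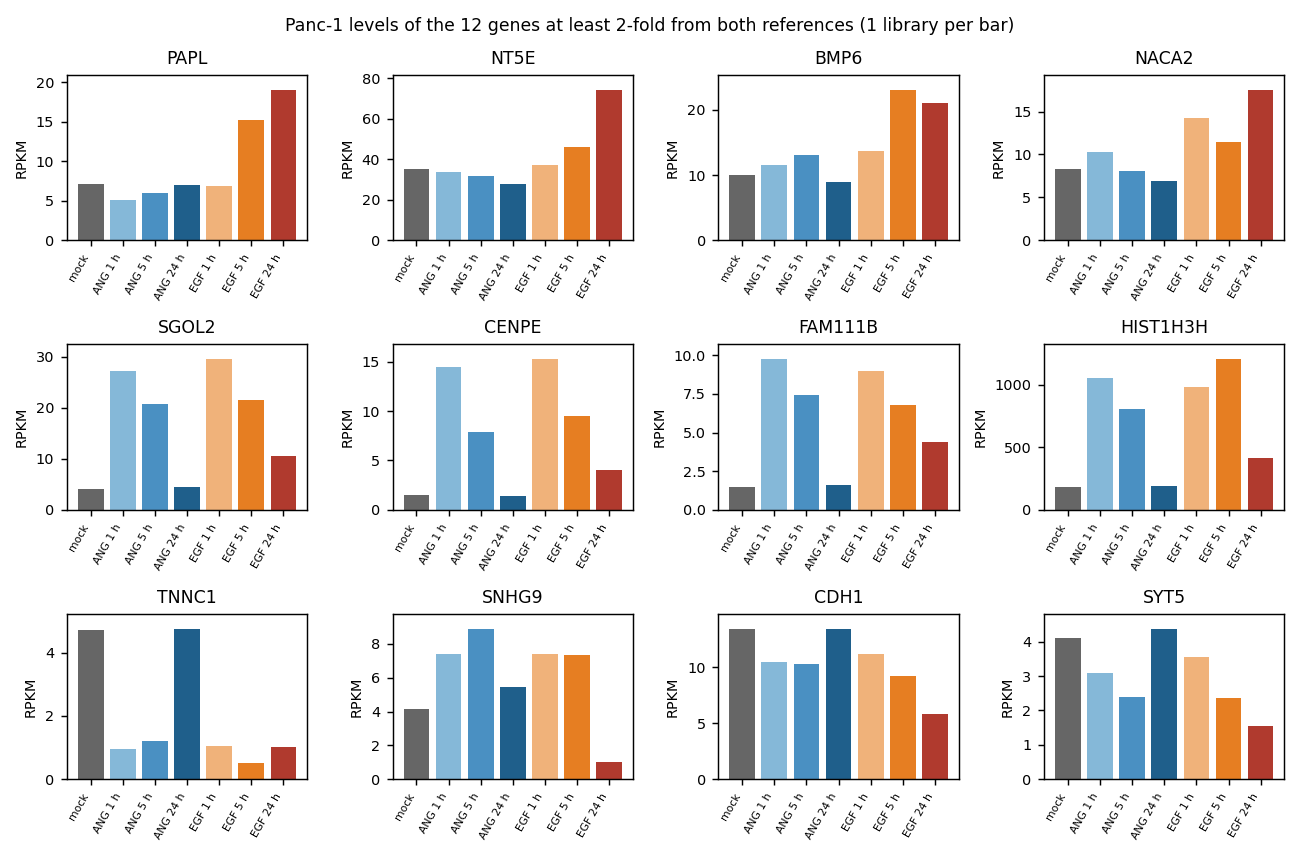
RPKM (y axis, from 0) of the 12 genes at least 2-fold from both references in the 7 Panc-1 libraries (x axis: mock, then ANG and EGF at 1, 5 and 24 h), 1 bar per library and hence no error bars. PAPL, NT5E and BMP6 are highest in the EGF 5 h and 24 h libraries, whereas SGOL2, CENPE, FAM111B and HIST1H3H at EGF 24 h lie between the references and all 4 early libraries.

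Genes of MAP kinase feedback were among the groups that stood higher at 24 h of EGF. Their list holds inhibitors of the pathway and also the ERK-induced factor ETV4. Of 18 considered members of this list 14 (77.8%) were higher than both references and 2 were lower, against 27.5% and 40.3% of all genes, and the median member lay 0.27 above mock and 0.43 above ANG 24 h. With libraries centred, 15 were higher and 1 lower, where 3989 of all 11950 genes were higher and 5184 lower. These centred counts over all genes also serve for the Panc-1 lists below. At least 1.5-fold higher were SPRY4, DUSP6, DUSP5 and ETV4.

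SPRY4, a Sprouty inhibitor of receptor tyrosine kinase signalling (chromosome 5, 141689992 to 141704620), was at 28 RPKM, against 13.9 in mock and 12.6 at 24 h of ANG (0.96 and 1.09). It was at 39.6 and 32.6 RPKM at 1 and 5 h of EGF but only 9.41 and 7.10 at 1 and 5 h of ANG, so all 3 EGF libraries exceeded all 4 others. AsPC-1 gave 57.6 RPKM with EGF against 30.3 and 30.1. DUSP6, the cytoplasmic ERK phosphatase (chromosome 12, 89741837 to 89746296), was at 14.3 RPKM against 7.47 and 6.39 (0.85 and 1.05). DUSP6 had been at 46.0 RPKM at 1 h and 25.2 at 5 h of EGF, with 13.7 and 9.09 at 1 and 5 h of ANG, so at 24 h it was close to the 1 h ANG library. In AsPC-1, where DUSP6 was at 215 RPKM in mock and 204 with ANG, EGF 24 h held 188.

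DUSP5, a nuclear ERK phosphatase, was at 50.7 RPKM against 32.7 and 31.4, after 91.1 at 1 h and 56.2 at 5 h of EGF, with 25.8 and 24.2 at those times of ANG. ETV4, an ETS factor induced by ERK, differed from these in its course. It was at 6.64 RPKM at 24 h of EGF, against 3.84 and 3.14 in the references, 4.07 and 4.90 at 1 and 5 h of EGF and 3.78 and 4.16 at 1 and 5 h of ANG, so EGF 24 h was its highest library. In AsPC-1 ETV4 was lower with EGF (27.2 RPKM against 42.8 and 41.7).

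The immediate-early factors were mostly back near the references. Of 14 considered members 8 (57.1%) were higher than both and 4 lower, against 27.5% and 40.3% of all genes. The medians were 0.07 and 0.21, and none of the 14 was 1.5-fold from both. With libraries centred 8 were higher and 3 lower, and 1 was at least 1.5-fold higher. EGR1, a zinc finger factor, was at 29.1 RPKM at 1 h of EGF, 3.30 at 5 h and 1.88 at 24 h, against 1.32 in mock and 1.49, 0.75 and 1.47 at 1, 5 and 24 h of ANG. FOSL1, an AP-1 subunit, kept a wider gap, at 36.3 RPKM against 24.8 and 20.5 (0.53 and 0.79), after 99.5 at 1 h and 63.2 at 5 h, where the ANG libraries held 40.1 and 40.9. JUN was at 38.6 RPKM against 27.1 and 25.5, and MYC at 75.2 against 55.2 and 55.4. In AsPC-1 FOSL1 was at 42.9 RPKM with EGF against 18.9 and 18.3, whereas JUN was lower there (8.80 against 12.5 and 13.1).

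Among receptors and ligands, EGFR itself was at 42.1 RPKM, between mock (43.7) and ANG 24 h (36.1). ERBB2 was lower than both references, at 15 RPKM against 20 and 19.1. HBEGF, a membrane-anchored EGFR ligand (chromosome 5, 139712428 to 139726188), was the list member furthest above them, at 7.40 RPKM against 4.50 and 3.95 (0.61 and 0.76). It was at 9.87 and 10.2 RPKM at 1 and 5 h of EGF and 4.88 and 4.96 with ANG, so the 3 EGF libraries exceeded the other 4, and AsPC-1 gave 22.9 RPKM against 10.9 and 9.42. The EGFR ligand EREG (3.34 RPKM against 2.66 and 2.08) and the ERBB3 ligand NRG1 (3.76 against 2.65 and 2.18) were also higher than both. EGF transcripts were listed at 0 in the 3 libraries. The gene of ANG overlaps RNASE4, which makes its reads uncertain, and stood at 3.65 RPKM against 4.78 and 4.93.

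Adhesion receptors and their matrix ligand were higher as a group. Of 13 considered integrin and laminin-332 genes 10 (76.9%) were higher than both references and none of the 13 was lower. Of all genes 27.5% were higher and 40.3% lower. The medians of the list were 0.20 and 0.34. With libraries centred 12 of the 13 were higher and 1 lower. Among the members at least 1.5-fold higher were the collagen receptor subunit ITGA2 and the laminin receptor subunit ITGA3.

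ITGA3 (chromosome 17, 48133340 to 48167849) was at 252 RPKM, against 142 in mock and 128 with ANG (0.82 and 0.98), with a counting error of at most 0.03 from an estimated 7211 reads. It was at 176 and 212 RPKM at 1 and 5 h of EGF and 157 and 167 with ANG, which put the EGF libraries in order of time above all 4 others. ITGA2 was at 72.6 RPKM against 42.0 and 34.4 (0.77 and 1.06), with 41.0 and 62.1 at 1 and 5 h of EGF and 37.2 and 36.6 with ANG. In AsPC-1 both genes were also higher with EGF, ITGA3 at 104 RPKM against 63.8 and 58.9, and ITGA2 at 178 against 106 and 96.7.

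The urokinase system, which activates plasmin at the cell surface, was mixed as a list, with the enzyme and its receptor higher. Of 10 considered protease genes 4 were higher than both references and 3 lower, against 27.5% and 40.3% of all genes. PLAU, the urokinase enzyme, was at 146 RPKM against 107 and 96.9 (0.44 and 0.58). Its receptor PLAUR was at 4.52 RPKM against 2.53 and 2.28 (0.64 and 0.75), with 4.51 at 5 h of EGF and 1.34 at 5 h of ANG. The gelatinase MMP2, among the lower ones, lay 0.22 below each reference.

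**Figure D3:**
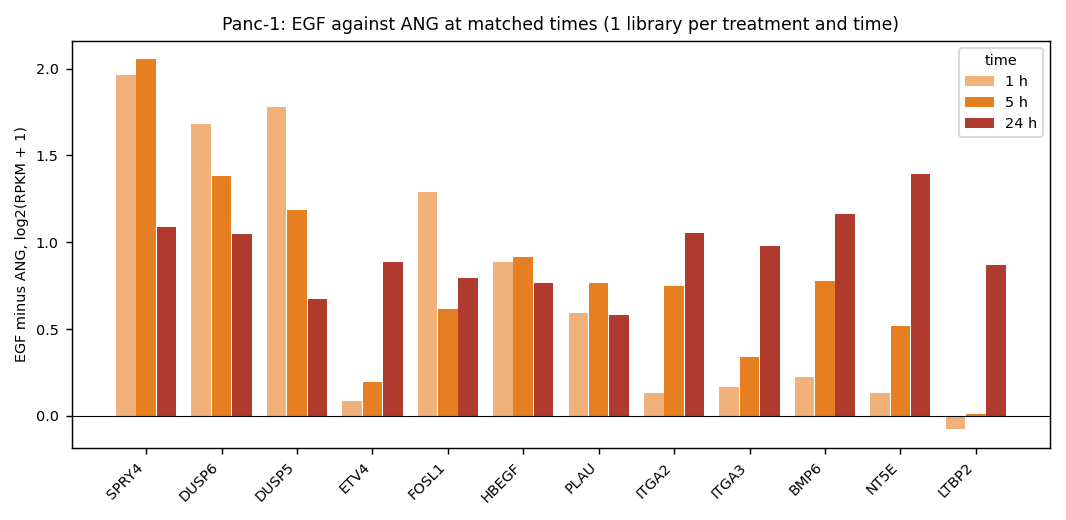
EGF minus ANG in Panc-1 on log2(RPKM + 1) (y axis) for 12 genes (x axis) at 1, 5 and 24 h, 1 library per treatment and time and hence no error bars. SPRY4, DUSP6, DUSP5 and FOSL1 have their wider gaps at 1 or 5 h, whereas ITGA2, ITGA3, ETV4, BMP6 and NT5E have theirs at 24 h.

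The epithelial cadherin CDH1, which joins epithelial cells at adherens junctions (chromosome 16, 68771195 to 68869444), was the lower gene with the most reads among the 4 past 2-fold. It was at 5.86 RPKM at 24 h of EGF, against 13.5 in mock and 13.4 with ANG (-1.08 and -1.07), from an estimated 247 reads and with a counting error of at most 0.11. The early libraries held 10.5 and 10.3 RPKM with ANG and 11.2 and 9.26 with EGF, so EGF 24 h was the lowest of 7 and EGF 5 h the next. With libraries centred the smaller difference was -0.99, just under 2-fold. In bulk RNA, fewer cells with a transcript and less of it per cell cannot be told apart. In AsPC-1 CDH1 was at 21.9 RPKM with EGF, between mock (23.4) and ANG 24 h (21.3).

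Of 19 considered epithelial genes 14 (73.7%) were lower than both references and 3 higher, against 40.3% and 27.5% of all genes. The medians of -0.18 and -0.08 were close to the genome-wide ones of -0.10 and 0.03, and with libraries centred 13 were lower and 2 higher. ELF3, an epithelial ETS factor, was at 14.9 RPKM against 26.2 and 26.7 (-0.78 and -0.80). ELF3 was lower still in the early libraries (7.37 to 12.2 RPKM), and in AsPC-1 it was at 60.1 with EGF against 110 and 99.9. The junction protein gene TJP3 was at 0.38 RPKM against 1.26 and 1.25, from an estimated 14.3 reads. The keratin KRT18 was at 395 RPKM against 522 and 523, whereas KRT7 was higher, at 4.13 against 2.82 and 3.06. The 9 ductal and carcinoma markers, which include CDH1 and the keratins, summed to 1169 RPKM in EGF 24 h, 1415 in mock and 1382 in ANG 24 h, and whether the share of such cells differed was not tested.

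Mesenchymal genes were not 1.5-fold from both references in any of 11 considered members, of which 6 were higher than both and 3 lower. Of all genes 27.5% were higher and 40.3% lower. The intermediate filament VIM was at 2755 RPKM against 2169 and 2044 (0.34 and 0.43), with 2206 and 2497 at 1 and 5 h of EGF and 2189 and 2098 with ANG. ZEB1, a repressor of CDH1, was at 9.49 RPKM against 6.70 and 6.90 (0.45 and 0.41), although the early libraries of both ligands held 8.16 to 9.23. The receptor kinase AXL was at 99.6 RPKM against 77.1 and 71.5. The 3 lower members were CDH2, neural cadherin (18.3 RPKM against 21.2 and 19.4), the focal adhesion gene TGFB1I1 (2.60 against 3.58 and 2.90) and ACTA2, smooth muscle actin, which differed least (-0.04 from mock and -0.01 from ANG 24 h on the log2 scale).

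The other genes past 2-fold on the lower side rested on few reads. TNNC1, slow troponin C, was at 1.01 RPKM against 4.71 and 4.76 (-1.51 and -1.52), from an estimated 9.26 reads with a counting error of up to 0.51, and all 4 early libraries were low too (0.52 to 1.22 RPKM). SNHG9, a small nucleolar RNA host gene, was at 1.01 RPKM against 4.14 and 5.47, from an estimated 4.80 reads and a counting error of up to 0.72. SYT5, a synaptotagmin, was at 1.54 RPKM against 4.11 and 4.38, from 12.6 reads, and with libraries centred its smaller difference was -0.93. More deeply read and just short of 2-fold were RASL11A, a small GTPase of the RAS family (53.7 RPKM against 105 and 110, -0.95 and -1.02), and RAB26, a secretory granule GTPase (11.6 against 22.5 and 23.9, -0.90 and -0.98). Both also lay below the references in the early libraries, RASL11A at 33.8 to 50.5 RPKM and RAB26 at 11.3 to 14.6. PCDH18, a protocadherin, was low with EGF alone, at 3.08 and 3.40 RPKM at 5 and 24 h of EGF and 5.81 to 7.70 in the other 5 libraries.

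Replication and division genes were higher as lists, by small amounts. Of 25 considered genes of cell cycle entry and G1/S, 23 (92.0%) were higher than both references and none lower. Of all genes 27.5% were higher and 40.3% lower. The G1/S medians were 0.20 and 0.37, and with libraries centred 23 were higher and 1 lower. CCNE2, cyclin E2, was at 4.32 RPKM against 2.30 and 1.96 (0.69 and 0.85), UHRF1, which carries DNA methylation through replication, at 5.01 against 2.97 and 2.74, and CCND1, cyclin D1, at 75.9 against 64.1 and 56.5. Of 27 G2/M genes 19 (70.4%) were higher and 2 lower, with medians of 0.11 and 0.28, or 21 and 1 with libraries centred. Past 1.5-fold were CENPE, CENPF (30.4 RPKM against 13.9 and 15.4), the hyaluronan receptor and spindle protein HMMR (14.1 against 8.57 and 6.90) and the checkpoint kinase TTK (14.3 against 8.97 and 9.14).

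In all 27 G2/M genes and 23 of the 25 G1/S genes EGF 24 h lay below both early ANG libraries, as 44% of all considered genes did. CENPF, for example, was at 90.1 and 74.1 RPKM at 1 and 5 h of ANG and 94.0 and 70.9 with EGF. The matched early comparisons did not place EGF above ANG for these lists: the G2/M median was -0.01 at 1 h and -0.19 at 5 h, and that of G1/S -0.03 and -0.18. In AsPC-1 24 of the 27 G2/M genes were lower at 24 h of EGF than in both references and 1 was higher, with medians of -0.48 and -0.33, where 60.1% of all genes were lower. With libraries centred 18 were lower and 4 higher, against 37.0% and 51.4% of all genes. CENPF was at 50.1 RPKM in AsPC-1 mock, 42.3 at 24 h of ANG, 21.4 at 24 h of EGF and 1.21 to 2.87 in the 4 early libraries, so for this gene EGF 24 h lay between the references and the early libraries in both lines, with the early libraries above the references in Panc-1 and below them in AsPC-1.

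Several cell cycle inhibitors differed in opposite directions. CDKN1A, the inhibitor p21, was at 61.7 RPKM against 44.3 and 40.6 (0.47 and 0.59), with 70.2 and 90.1 at 1 and 5 h of EGF and 48.5 and 44.2 with ANG, and AsPC-1 gave 108 against 24.3 and 24.4. CDKN1B, the inhibitor p27, was lower than both references, at 15.1 RPKM against 21.1 and 17.7. It was also lower with EGF than with ANG at 1 h (20.3 and 29.5) and 5 h (21.1 and 28.4).

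Genes linked to FOXO factors and insulin signalling, which fall silent under growth factor signalling, were lower as a list, with 12 (70.6%) of 17 considered members lower than both references and 2 higher. Of all genes 40.3% were lower and 27.5% higher. With libraries centred 10 of the 17 were lower and 1 higher. SEPP1, now SELENOP, was at 1.06 RPKM against 2.09 and 2.19, from 19.6 estimated reads. PIK3IP1, an inhibitor of PI3 kinase, was at 4.75 RPKM against 6.59 and 6.61, and the early libraries of both ligands were lower still, at 1.55 and 1.19 with EGF and 3.38 and 1.67 with ANG. CCNG2, an atypical cyclin, was at 2.93 RPKM against 4.85 and 4.16. Of 13 considered BCL2 family genes 5 were higher than both references and 5 lower, against 27.5% and 40.3% of all genes. The pro-apoptotic BIM gene BCL2L11 was at 2.21 RPKM against 4.01 and 3.85 (-0.64 and -0.60), while the survival genes BCL2L1 (95.3 against 74.2 and 68.6) and BCL2A1 (14.5 against 9.23 and 8.67) and the pro-apoptotic PMAIP1 (10.5 against 8.41 and 7.19) were higher. In AsPC-1 15 of the 17 FOXO-linked genes were lower than both references, where 60.1% of all genes were, with medians of -0.91 and -0.70. With libraries centred 13 of the 17 were lower there and 4 higher, against 37.0% and 51.4% of all genes.

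Interferon-stimulated genes were lower in 16 (64.0%) of 25 considered members and higher in 1, with medians of -0.23 and -0.12. With libraries centred 16 were lower and 3 higher. IFITM1, an antiviral membrane protein, was at 106 RPKM against 162 and 157 (-0.61 and -0.56), and IFI6 at 44.2 against 59.2 and 64.0, and both were lower still in the early libraries of both ligands (IFITM1 at 83.8 to 96.3). Lysosome and autophagy genes were lower in 16 (59.3%) of 27 and higher in 3, with none of the 27 at 1.5-fold from both. NEU1, the lysosomal sialidase, was at 30.7 RPKM against 43.1 and 39.8. Fatty acid synthesis genes were lower in 8 (57.1%) of 14 and higher in 3, where 40.3% and 27.5% of all genes were lower and higher. The housekeeping genes given below were lower in the same share, close to the 59.3% of the lysosome list. The desaturase SCD was at 277 RPKM against 395 and 330, well above the 97.6 to 127 of the early libraries.

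Metallothioneins and zinc exporters, small cysteine-rich metal buffers and their partner transporters, had the widest median of the lists described, 0.44 above mock and 0.64 above ANG 24 h, with 5 of 8 considered members higher and 2 lower. MT1M was at 6.22 RPKM against 3.36 and 2.02, and MT1X at 11.2 against 6.52 and 6.46. MT1F lay the other way, 0.49 below mock and 0.92 below ANG 24 h. These genes are near-identical in sequence, so their reads are uncertain. Of 26 ATF4 and amino-acid stress genes 15 (57.7%) were higher and 3 lower, against 27.5% and 40.3% of all genes. SESN2, a stress sensor, was at 24.2 RPKM against 16.6 in each reference, and the cystine transporter SLC7A11 at 17.2 against 11.5 and 10.7, far under the early libraries of both ligands (SESN2 at 92.2 to 143). Of 31 ribosome biogenesis genes 18 (58.1%) were higher and 2 lower, with RRP12 at 37.0 RPKM against 27.9 and 26.9.

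For comparison, 14 housekeeping genes gave 1 higher and 8 lower (57.1%), with medians of -0.08 and -0.04. Of all genes 27.5% were higher and 40.3% lower. The 37 ribosomal protein genes gave 4 higher and 14 lower (37.8%), with medians of -0.13 and 0.03. GAPDH was at 772 RPKM against 817 and 863.

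**Figure D4:**
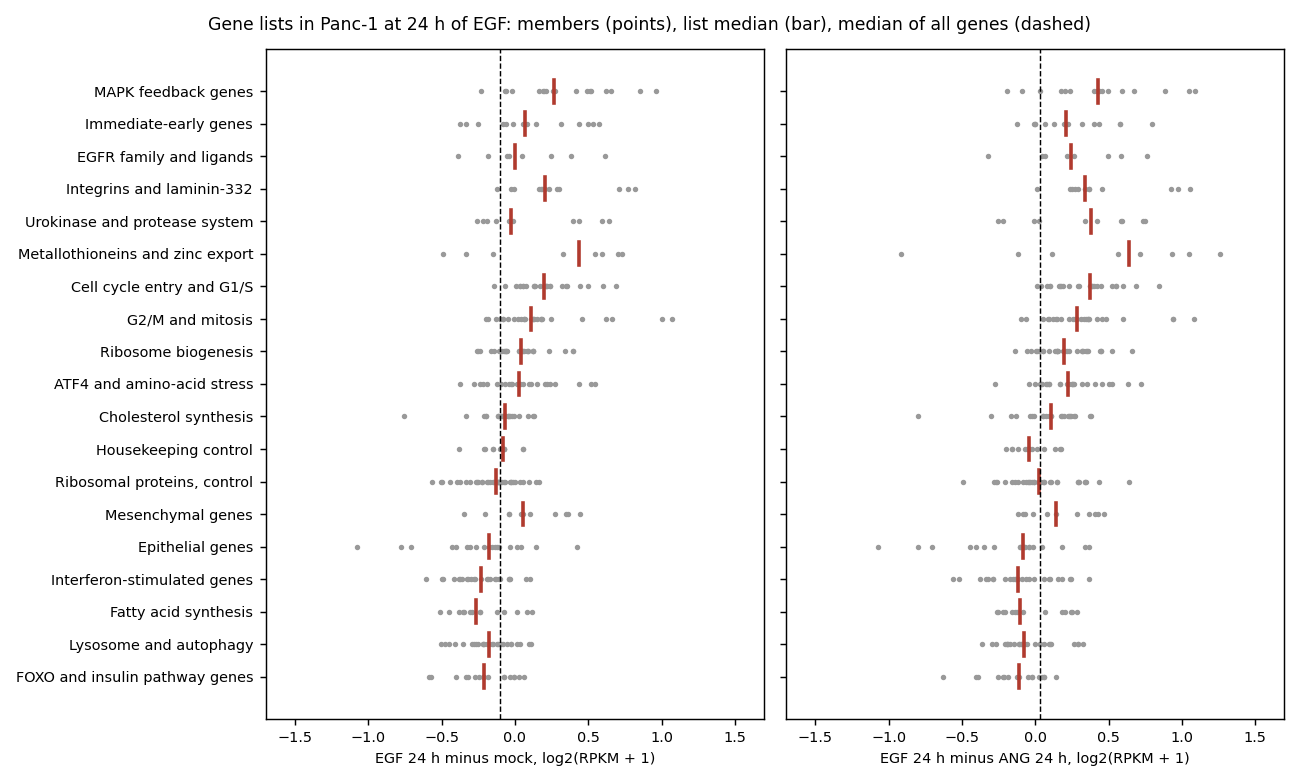
Differences of Panc-1 EGF 24 h from mock (left) and ANG 24 h (right) on log2(RPKM + 1) (x axes) for the considered members of 19 gene lists (y axis), with 1 grey point per gene, a red bar at the list's median and a dashed line at the median of all 11950 genes. MAPK feedback, integrin, metallothionein and G1/S lists lie to the right of the dashed line on both sides, and the epithelial, interferon, lysosome and FOXO lists to its left; both panels share the EGF 24 h library.

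Promoters of the genes past 1.5-fold were searched for TGANTCA, since AP-1 subunits were among the EGF-responsive factors. This pattern is a loose form of the AP-1 site that allows any middle base. RefSeq promoters of GRCh38.p14, covering 250 bases before to 50 after the start, matched 72 of the 100 higher and 50 of the 70 lower genes. The loose pattern, searched on both strands, was present in 6 of the 72 (8.33%) and none of the 50. It was present in 4.15% of 9521 considered genes with a promoter and 7.76% of all 27305 promoters. Matches with C or G in the middle were not counted apart. The E-box CACCTG, with CAGGTG as its other strand, is a site that ZEB and SNAI repressors can bind. It was present in 15 of the 50 lower genes (30.0%) and 14 of the 72 higher (19.4%). Of considered genes 17.5% held it, and of all 27305 promoters 20.6%. CDH1 had no entry among these promoters, so it was not searched. A match is a description of letters and shows no binding. Shown are the 250 bases before the start, 5′ to 3′ on the gene's strand with matches in capitals, for 3 higher genes with an AP-1 match, PLAUR (chr19:43670170-43670419, minus strand), EMP1 (chr12:13196476-13196725, plus) and TFPI2 (chr7:93890754-93891003, minus), and for ELF3 (chr1:202010337-202010586, plus) with its E-box, all in GRCh38.p14. EMP1 and TFPI2 lie outside the naming rule and were chosen after their values were seen.
PLAUR: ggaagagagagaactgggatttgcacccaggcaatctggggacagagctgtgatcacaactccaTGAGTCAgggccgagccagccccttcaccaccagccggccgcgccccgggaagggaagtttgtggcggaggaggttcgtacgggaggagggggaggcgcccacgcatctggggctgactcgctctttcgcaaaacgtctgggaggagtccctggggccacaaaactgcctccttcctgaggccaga
EMP1: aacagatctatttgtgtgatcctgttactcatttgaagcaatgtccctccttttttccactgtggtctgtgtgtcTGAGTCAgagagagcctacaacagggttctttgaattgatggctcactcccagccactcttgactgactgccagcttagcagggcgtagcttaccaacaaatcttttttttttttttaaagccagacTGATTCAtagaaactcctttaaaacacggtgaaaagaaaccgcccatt
TFPI2: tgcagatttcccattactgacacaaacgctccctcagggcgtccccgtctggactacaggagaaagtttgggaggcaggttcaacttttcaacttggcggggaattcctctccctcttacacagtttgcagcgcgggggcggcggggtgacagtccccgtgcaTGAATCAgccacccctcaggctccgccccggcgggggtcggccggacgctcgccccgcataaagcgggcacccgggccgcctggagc
ELF3: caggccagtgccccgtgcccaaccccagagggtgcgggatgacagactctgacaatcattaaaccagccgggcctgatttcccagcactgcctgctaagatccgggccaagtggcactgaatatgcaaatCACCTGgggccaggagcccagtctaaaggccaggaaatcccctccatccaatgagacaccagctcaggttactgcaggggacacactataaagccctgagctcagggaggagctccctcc

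The AP-1 match begins 186 bases before the start in PLAUR, 175 and 48 in EMP1 and 87 in TFPI2. These matches read TGAGTCA in PLAUR, TGAGTCA and TGATTCA in EMP1 and TGAATCA in TFPI2. The E-box of ELF3 begins 120 bases before the start. EMP1, an epithelial membrane protein, was at 9.60 RPKM at 24 h of EGF, against 5.63 in mock and 4.56 with ANG, and at 8.30 and 8.91 at 1 and 5 h of EGF against 4.16 and 5.31 with ANG, so the 3 EGF libraries exceeded the other 4. TFPI2, a protease inhibitor, was at 3.0 RPKM against 1.37 and 1.46, with 1.36 and 1.76 at 1 and 5 h of EGF and 0.61 and 0.46 with ANG.

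The matched ANG and EGF libraries of 1 and 5 h share no library with the 24 h comparison and show how far its genes were set apart earlier. Of the 100 genes at least 1.5-fold higher at 24 h, 77 were higher with EGF than with ANG at 5 h, against 37.8% of all considered genes. With libraries centred the 5 h share was 84.0%, against 51.8% of all. At 1 h the count was 66, against 58.4% of all genes, or 62 against 51.5% with libraries centred. At least 2-fold higher were 10 of the 100 at 5 h (0.184% of all genes) and 4 at 1 h (0.335% of all). Of the 70 lower genes 56 (80.0%) were lower with EGF at 5 h, against 61.7% of all genes, or 71.4% against 48.2% with libraries centred. Of the 8 genes past 2-fold at 24 h, PAPL was also past it at 5 h (1.22). None of the 4 lower ones was 2-fold lower with EGF at 5 h, as 0.0167% of all genes were, or at 1 h (0.0586% of all genes).

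AsPC-1, a pancreatic carcinoma line grown from ascites, gave an independent EGF 24 h library with its own mock and ANG 24 h references. Of the 100 higher genes 31 were higher than both references there and 56 lower, beside 25% and 60.1% of all 11950 genes, whose median lay 0.16 below mock and 0.10 below ANG 24 h. Of the 70 lower genes 50 (71.4%) were lower there and 5 higher. These counts depended on the scaling. With libraries centred, 47 of the 100 were higher and 52 lower, beside 51.4% and 37.0% of all genes, and 38 of the 70 (54.3%) were lower and 25 higher. The 100 higher genes were then split, after their values were seen, by whether both early ANG libraries of Panc-1 lay above EGF 24 h. They did so for 34 of the 100, against 44% of all considered genes. How all genes with that order stood in AsPC-1 is not given. In AsPC-1 30 of these 34 were lower than both references and 3 higher, with medians of -0.71 and -0.56. With libraries centred, 29 of the 34 were lower and 4 higher. Of the other 66, 28 were higher and 26 lower, or 43 (65.2%) and 23 with libraries centred.

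The 34 genes differed from the rest in transcript length and base composition as well. The median GENCODE transcript of the 34 was 3.21 kb with 38.1% GC, against 1.84 kb and 50.9% for the other 66 and 1.79 kb and 50.1% for all considered genes. Length and GC of all considered genes with both early ANG libraries above EGF 24 h are not given. These values may thus not be particular to the 34. Besides CENPE, CENPF and SGOL2 the 34 included ASPM, a spindle pole protein (9.5 RPKM against 3.95 and 4.32), and KIF20B, a mitotic kinesin (6.83 against 3.0 and 2.68). Whether length or base composition plays a part in these differences was not tested.

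**Figure D5:**
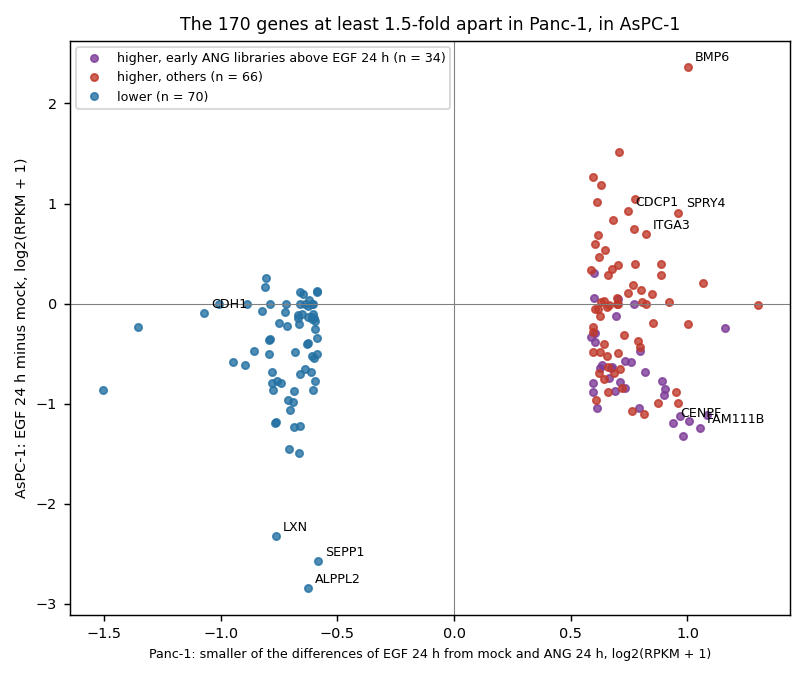
The 170 genes at least 1.5-fold from both references in Panc-1, by the smaller Panc-1 difference (x axis) and the difference of EGF 24 h from mock in AsPC-1 (y axis), both on log2(RPKM + 1), 1 point per gene. BMP6, SPRY4 and ITGA3 are higher in both lines, 30 of the 34 purple genes are lower than both AsPC-1 references, and LXN, SEPP1 and ALPPL2 are lower in both lines.

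Both lines were then fitted together with limma, as an additive model of line and condition over the 14 libraries, with EGF 24 h set against the mean of mock and ANG 24 h. With the lines as the only repeat, none of 13427 genes passed a Benjamini-Hochberg adjusted p of 0.05 in either direction (0 higher and 0 lower), 976 had an unadjusted p under 0.05, and the smallest adjusted p was 0.557. The fitted differences were 1.69 ± 0.46 (SE) for BMP6 (limma adjusted p = 0.571), 0.97 ± 0.31 for SPRY4 (limma adjusted p = 0.645), 0.76 ± 0.20 for NT5E (limma adjusted p = 0.571) and 0.74 ± 0.13 for IER2, an immediate-early gene (limma adjusted p = 0.557). RAB26 lay at -0.81 ± 0.13 (limma adjusted p = 0.557). On simulated data of 13427 genes, with the same change placed in both lines, the fit recovered 52% of genes changed 2-fold and 86% of those changed 4-fold. Of its 146 calls there, 8 were false. Changes in Panc-1 alone were not simulated, so these shares do not apply to them. Without the AsPC-1 EGF 24 h library, the EGF 24 h side of the contrast rests on the Panc-1 library, which is assumed to vary like the other libraries. The references and the line term still draw on both lines, so that fit was no test of the Panc-1 comparison.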

How the data were processed

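Levels are those of 14 RNA-seq libraries, 1 per line and condition, grouped by the labels. The deposited values are log2 RPKM that the authors computed, per the file headers, and the submitters' processing notes name the build hg19. The aligner, counter, annotation and any use of strand: not given in the sources used here. Log2 values were turned back to RPKM, with the lowest listed value of -8.966 read as 0. Differences are on log2(RPKM + 1), which understates changes of low genes. Depth was estimated from the value of 1 read in genes of at most 150 bp (whole multiples within 0.1), and counting errors from it and GENCODE transcript lengths. They cover counting error only.

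The main call was 2-fold against both references, with no test. The model was fitted by limma 3.58.1 (R 4.3.3, variance trend) to genes that reached 1 RPKM in 2 or more libraries. The line is a term of the model, so its p-values rest on how far the lines disagree in their conditions. That disagreement is pooled over all 7 conditions, those of 1 and 5 h included, and is no spread between repeats at 24 h. The fit was tested on simulated data. Tables used Python 3.11.15 and pandas 2.3.3. Members, the 40 lists, the tests and the alternatives were chosen with earlier results of these data known. Named genes were the 15 with the largest smaller difference each way, up to 4 per list, and a fixed few, 174 in all. Those the results turn on are described, and a few genes are not reported here. Alternatives covered pseudocount, centring, upper-quartile scaling, minimum RPKM and span, single references, other fold limits, and left-out libraries.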

Additional observations from a re-analysis of the deposited data

Results flagged for a closer look

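Several results ran in opposite directions in the lines at 24 h of EGF, each with 1 library per condition, and the difference between the lines was not tested. CENPE, FAM111B, SGOL2 and HIST1H3H, all at least 2-fold higher than both references in Panc-1, were lower than both in AsPC-1, where the smaller differences were -0.74, -1.20, -0.79 and -0.24 on the log2 scale. The early AsPC-1 libraries lay far below its references, CENPE at 1.06 to 1.27 RPKM against 13.2 in mock and 9.50 at 24 h of ANG and HIST1H3H at 13.3 to 42.7 against 1184 and 1231, whereas the early Panc-1 libraries lay above theirs. For all 4 genes EGF 24 h thus lay between the references and the 4 early libraries in each line. The G2/M and mitosis list differed from mock by a median of 0.11 in Panc-1 and of -0.48 in AsPC-1. The fatty acid synthesis list lay at -0.27 in Panc-1 and 0.13 in AsPC-1, and the metallothionein list at 0.44 and -0.30. The median of all considered genes lay at -0.10 and -0.16. With libraries centred the G2/M list lay at 0.19 in Panc-1 and -0.26 in AsPC-1. The fatty acid list then lay at -0.18 and 0.35, and the metallothionein list at 0.52 and only -0.08.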

How the results depend on the processing

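The counts of 8 higher and 4 lower genes in Panc-1 moved with the settings. They were 29 and 25 with a pseudocount of 0.1 RPKM, 1 and 0 with 5 RPKM, 38 and 11 with no minimum span, 17 and 9 against mock alone, 18 and 11 against ANG 24 h alone, 100 and 70 at 1.5-fold, and 0 and 0 at 3-fold. The lower count was 2 with libraries centred on their median, 2 with upper-quartile scaling and 2 with a minimum of 5 RPKM. Of the 12 genes, 9 stayed past 2-fold with libraries centred, 10 with upper-quartile scaling and 1 with a pseudocount of 5 RPKM. The minimum of 5 RPKM left out CENPE, FAM111B, TNNC1 and SYT5, and the other 8 stayed past it. No value of the 12 changed sign where a setting gave one. With libraries centred, 4 of the genes called higher in Panc-1 were higher in AsPC-1, against 2 otherwise. With a pseudocount of 0.1 RPKM, 1 lower gene was at least 2-fold lower at 5 h, against 0. The limma fit gave 2 higher and 1 lower genes with no minimum RPKM, and 0 and 0 under the other settings and with each 24 h or mock library left out in turn. The cause of these moves was not tested. No paired analysis was possible because each group holds 1 library and the labels give no replicate numbers that pair samples, while the limma fit has the line as a term and so compares conditions within lines. At the depth of these libraries genes near 1 RPKM rest on few reads.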
